A study of Mus musculus with 19 samples.

Results

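L803mts, a peptide inhibitor of glycogen synthase kinase 3 (GSK3), was given intranasally to mice, and small RNA of the right hippocampus was compared with that of vehicle-treated mice on miRNA arrays. The comparison used the 4 arrays titled L803mts and the 4 titled control, 8 of the 19 arrays in the series. All mice were adult male C57BL/6. L803mts mice received 60 µg of the peptide, a dose written as 61 µg for replicate 4, with 5 µL into each nostril on alternate days over 3 days, and tissue was taken 24 h later. The general protocol text spells the peptide L808mts. Control mice received vehicle by the same route, volume and schedule, and no genetic change or other agent is named for either group. Another group is used for 1 comparison at the end: 4 samples after 10 µg of siRNA against GSK3b (siGSK3b, written as 11 µg for replicate 4) on the same schedule. The labels number the samples without stating that they are different mice, so the p-values cover only the spread among the samples, which may be technical.

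GSK3 is a serine/threonine kinase that is active in resting cells, where it phosphorylates many substrates, often at sites that another kinase has already phosphorylated. L803mts is a cell-permeable phosphorylated peptide built to compete with such substrates, unlike lithium, which competes with the magnesium ion in the kinase. miRNAs are short RNAs that guide repressor complexes to partly matching mRNAs. A change in a kinase can reach miRNAs through their transcription, their processing or their decay, none of which an array of mature small RNA separates. In RNA of whole tissue, fewer cells of a type and less RNA per cell cannot be told apart.

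Each array held 3432 distinct probes in 3 spots each, laid out in 8 print blocks. Values are normalized log2 intensities, on which 1 unit is a doubling, and 3421 probes bright enough on at least 3 arrays were tested. The probes carry vendor codes. The files and reference tables used here pair none of these codes with a miRNA name or sequence, since 0 of the 2569 non-numeric codes matched, so probes are named by code only, no sequence is shown, and no hippocampal marker could be checked. GSK3 activity was not measured on these arrays.

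No array-level measure passed a test between the groups, although L803mts replicate 2 stood apart on single probes. Median foreground intensity was 157 ± 12.3 (SD, n = 4) in control and 142 ± 17.9 (SD, n = 4) in L803mts, over median local backgrounds of 94.8 ± 4.86 and 85 ± 6.22. Between 3260 and 3397 probes stood above background. None of 5 such measures passed an exact two-sided permutation test (p = 0.0857 to 0.543). With 4 arrays in each group that test has little power, so it does not show that the groups are alike. The 4 control arrays shared slide 1 and L803mts replicates 1, 3 and 4 shared slide 3, whereas L803mts replicate 2 was on slide 6. No slide held both groups, so slide and treatment cannot be told apart in any result below.

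The comparison asks which small RNAs differ after the peptide. After L803mts, 85 of 3421 probes (2.48%) passed the threshold, an adjusted p under 0.05 by limma with Benjamini-Hochberg adjustment. Falls outnumbered rises: 64 probes fell (1.87% of those tested) and 21 rose (0.614%). Falls were also larger, with a median of -0.65 log2 units against 0.37 for rises, and 18 falls but only 2 rises exceeded 1 log2 unit. The median difference over all tested probes was 0.005. Quantile normalization gives every array the same distribution, so this value says little about a shift across all probes. In 60 of the 64 falls and 19 of the 21 rises the 4 L803mts arrays did not overlap the 4 control arrays. Over all tested probes 7.45% did not overlap, 4.44% with L803mts below and 3.01% with it above. Without L803mts replicate 2 these counts could not drop, and they stayed at 60 and 19. Of all probes, 5.85% then lay wholly below and 4.71% wholly above.

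Most called probes were bright ones. When the tested probes were split by control intensity into 3 classes of equal size, 54 of the 1140 brightest fell and 17 rose, against 9 and 2 in the middle class and 1 and 2 in the dimmest. By the mean of their 3 spots, all 64 falls and 19 of the 21 rises were above background on each of the 8 arrays. On L803mts replicate 2 some falls were nevertheless close to it. There the spots of 3142 read 162, 6 and 27 above local background and those of 2890 read 43, 54 and 23. Those of 1527 read 612, 443 and 174.

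**Figure D1:**
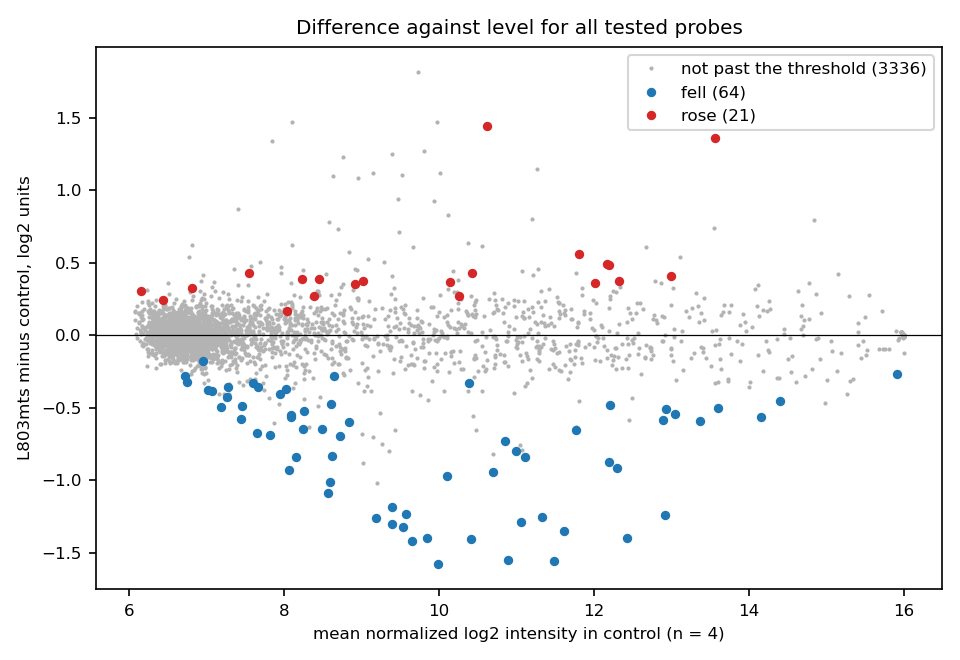
Difference between L803mts and control (vertical axis, log2 units) against mean control intensity (horizontal axis, normalized log2 intensity, n = 4 arrays) for all 3421 tested probes, with the 64 falls in blue and the 21 rises in red. Falls reach -1.58 and lie mostly at control levels above 7, and 2 rises lie above 1.

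The count depended on which arrays entered the fit. The fit used all 19 arrays of the series, whose 5 groups share 1 estimate of spread per probe. Restricted to the 8 arrays, it called 20 probes (0.585%), 18 of them among the 85. Leaving out control replicate 2 gave 51 calls, and leaving out L803mts replicate 2 gave 70 (2.05%), of which 52 fell (1.52%) and 18 rose (0.526%).

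Probe 3142 had the largest fall. Its control arrays read 10.50, 10.09, 9.79 and 9.54, and its L803mts arrays 9.03, 7.21, 8.87 and 8.50 in replicate order. The groups did not overlap, and L803mts replicate 2 was the lowest array by more than 1 log2 unit. The difference was -1.58 log2 units (SE 0.30, limma adjusted p = 0.00887), which left 33.4% of the control level. Without replicate 2 it was -1.18 (adjusted p = 0.00251), or 44.0% of control. It did not pass in the fit of the 8 arrays (adjusted p = 0.160) or with plain background subtraction (0.0504).

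Probe 2906 was at 10.80, 10.98, 11.06 and 10.71 in control. It was at 9.75, 8.11, 9.72 and 9.78 in L803mts, so that 3 arrays lay within 0.1 log2 units of each other and replicate 2 stood well below them. The fall was -1.55 (SE 0.27, limma adjusted p = 0.00428), and -1.14 without replicate 2 (adjusted p = 1.65e-05). Probe ORB_1112497 showed the same layout, with control arrays at 11.82, 11.65, 11.32 and 11.16 and L803mts arrays at 10.51, 8.20, 10.47 and 10.54. Its fall was -1.56 (SE 0.37, adjusted p = 0.0341) with all arrays and -0.98 (adjusted p = 0.000901) without replicate 2. It no longer passed when control replicate 1, 2 or 3 was left out, with adjusted p between 0.0629 and 0.0986.

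Probe 2885 was steady in control, at 9.54, 9.70, 9.68 and 9.67, and read 8.66, 7.29, 8.45 and 8.50 in L803mts. It fell by 1.42 log2 units (SE 0.21, limma adjusted p = 0.00134), and its difference without replicate 2 was -1.11. Probe 2869 had the smallest adjusted p of the 12 largest falls. Its control arrays read 11.08, 11.04, 11.17 and 10.93 and its L803mts arrays 10.21, 9.18, 9.82 and 9.86, again with replicate 2 lowest and no overlap. The difference was -1.29 (SE 0.15, adjusted p = 0.000324), and -1.09 without replicate 2.

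The remaining 7 of the 12 largest falls were 2877 at -1.40, ORB_1112352 at -1.40, 1527 at -1.40, ORB_0511163 at -1.35, 1892 at -1.32, 2890 at -1.30 and 2883 at -1.26 log2 units. For each of the 12, all 4 L803mts arrays lay below every control array. In the fit of the 8 arrays only ORB_1112352 and 2869 of the 12 passed, and the other 10 had adjusted p = 0.0610 to 0.274. Leaving out replicate 2 took 11 of these 12 differences to between -0.85 and -1.18, while ORB_1112352 moved the other way, to -1.48. The call of 1527 was lost without any 1 of the 4 control arrays (adjusted p = 0.0659 to 0.0986).

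**Figure D2:**
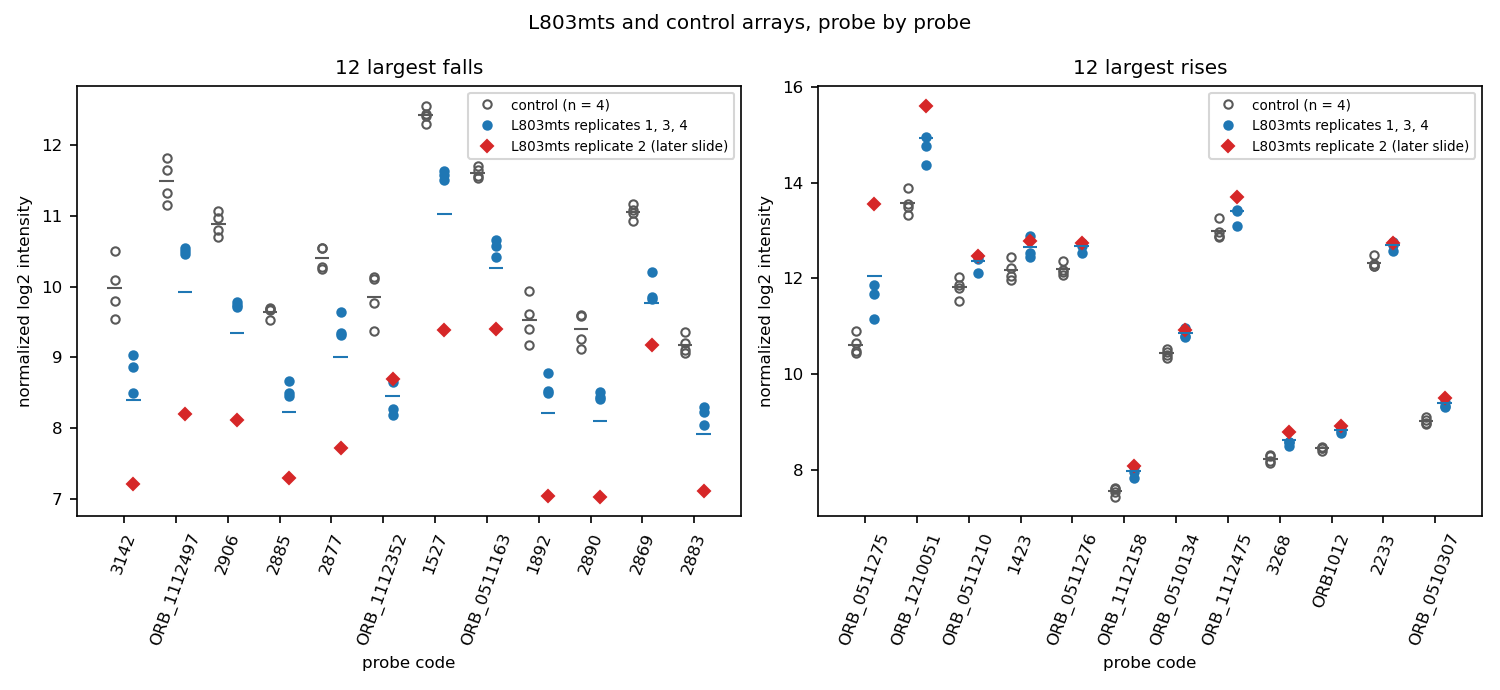
Normalized log2 intensity on each control (open circles, n = 4) and L803mts array (filled, n = 4) for the 12 largest falls and the 12 largest rises, with dashes at group means and L803mts replicate 2 as a red diamond. In 11 of the 12 falls replicate 2 is the lowest array, and in ORB_1112352, at 8.70, it is the highest of the 4 L803mts arrays.

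ORB_1112352 was the one of the 12 whose fall was as large without replicate 2. Its control arrays read 10.14, 10.11, 9.37 and 9.77 and its L803mts arrays 8.18, 8.70, 8.28 and 8.65, without overlap. The fall was -1.40 (SE 0.27, limma adjusted p = 0.00902), to 37.9% of control, and it passed in the fit of the 8 arrays as well (adjusted p = 0.0291). Its 3 spots gave nearly the same difference, -1.41, -1.48 and -1.45. It is also 1 of the probes in the authors' deposited table of processed values, which came to 1088, 1024, 572 and 778 in control and 220, 344, 239 and 334 in L803mts. A fit of log2 of those values gave -1.59 (adjusted p = 0.00798 over the authors' probes).

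Calls that held in 3 fits, those of all 19 arrays, of the 8 arrays alone and without L803mts replicate 2, numbered 16. These fits share arrays and are not independent. The 11 falls among them lay between -0.37 and -1.40 log2 units (limma adjusted p = 0.000242 to 0.0182), and the 5 rises 0.37 to 0.48 (adjusted p = 0.00121 to 0.0127). In all 16 the groups did not overlap.

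Several falls of this set are singled out here after their values were seen. ORB_0511179 read 12.32, 12.44, 12.15 and 12.27 in control and 11.35, 11.29, 11.44 and 11.43 in L803mts. That fall was -0.91 (SE 0.20, limma adjusted p = 0.0182), beside group SDs of 0.12 and 0.07. ORB_0511565, a very bright probe, read 14.16 ± 0.079 in control and 13.60 ± 0.032 in L803mts (SD over 4 arrays), or -0.56 log2 units (adjusted p = 0.0101). ORB_0511135 fell by 0.66, ORB_0510279 by 0.59, ORB_0511159 by 0.51, ORB_1112310 by 0.49 and ORB_1210432 by 0.37, and 3282 had the lowest adjusted p of all tested probes (-0.69, SE 0.075, adjusted p = 0.000242).

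Among rises, ORB_0511275 and ORB_1210051 stood apart in size. ORB_0511275 was at 10.48, 10.43, 10.89 and 10.65 in control and at 11.15, 13.55, 11.87 and 11.67 in L803mts. Replicate 2 was highest by more than 1.5 log2 units, yet the other 3 arrays also lay above all control arrays. The rise was 1.45 (SE 0.35, limma adjusted p = 0.0392) with replicate 2 and 0.95 (adjusted p = 0.0274) without it. The call was lost without any 1 of the control arrays or without L803mts replicate 3 (adjusted p = 0.0504 to 0.105).

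ORB_1210051 was at 13.33, 13.48, 13.55 and 13.90 in control and at 14.37, 15.61, 14.76 and 14.96 in L803mts. The groups were separate, with replicate 2 again the extreme array. It rose by 1.36 (SE 0.26, limma adjusted p = 0.00887), or 2.57-fold, and by 1.13 without replicate 2 (adjusted p = 0.0252).

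The other 10 of the 12 largest rises were small, from 0.56 for ORB_0511210 through 0.49 for 1423, 0.48 for ORB_0511276, 0.43 for ORB_1112158 and ORB_0510134, 0.41 for ORB_1112475 and 0.39 for 3268 and ORB1012 to 0.37 for 2233 and ORB_0510307. Their spread varied, with SDs of 0.25 for ORB_1112475 and 0.21 for 1423 in L803mts and 0.09 for ORB_0510307. ORB_0510307 read 9.04, 8.96, 8.97 and 9.11 in control and 9.31, 9.51, 9.33 and 9.41 in L803mts. Every L803mts array was above every control array there, at a difference of 0.37 (SE 0.05, limma adjusted p = 0.00121). ORB_0510134, at 10.47, 10.34, 10.52 and 10.39 in control, was at 10.77, 10.92, 10.79 and 10.96 in L803mts. ORB_0511276, ORB_1112158, ORB_0510134, ORB1012 and ORB_0510307 were the rises called in all 3 fits. 1423 and ORB_1112475 had overlapping arrays and were not called without replicate 2 (adjusted p = 0.0879 and 0.128), and neither was 3268 (0.127). The small rises also hung on the scaling between arrays. With each array scaled to 1 median in place of quantile normalization, 9 of the 12 lost their call, and the count over all probes was 51 falls and 5 rises.

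Another 13 probes were higher in L803mts by over 1 log2 unit, by up to 1.82, without passing (adjusted p = 0.213 to 0.521). Their control arrays were themselves scattered, with SDs of 0.88 to 2.34 log2 units. A single probe differed by less than -1 without passing, ORB_1112023 at -1.02 (adjusted p = 0.173).

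Around the threshold, the last probes inside it were ORB_1112009 at -0.45 (limma adjusted p = 0.0482) and 2893 at -0.60 (0.04997). The first outside were 2898 at -0.41 (adjusted p = 0.0508) and ORB_1112045 at -0.47 (0.0524), so differences of this size fell on either side. Without L803mts replicate 2 neither ORB_1112009 (-0.45, adjusted p = 0.115) nor 2893 (-0.39, adjusted p = 0.0574) passed.

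The authors' deposited table of processed values covers 747 of the tested probes. From the scanner intensities, 12 of these fell and 5 rose (2.28% in all), close to the 2.48% over all probes. The 5 largest falls were ORB_1112352, ORB_0511548 at -0.84 (SE 0.16, limma adjusted p = 0.00907), ORB1136 at -0.84 (SE 0.20, adjusted p = 0.0358), ORB_0409040 at -0.80 (SE 0.13, adjusted p = 0.00373) and 1852 at -0.73 (SE 0.14, adjusted p = 0.00887). ORB_0511548 was the evenest of these, at 11.24, 11.19, 10.88 and 11.11 in control and 10.06, 10.17, 10.39 and 10.43 in L803mts. ORB1136 was the least even, with control arrays from 7.63 to 8.80, and it did not pass when control replicate 1, 2 or 3 or L803mts replicate 2 or 4 was left out (adjusted p = 0.0605 to 0.121). The 5 largest rises were 1423, ORB1012, 2233, 2181 at 0.27 and ORB_1210600 at 0.17. Without L803mts replicate 2 the differences of ORB_0409040 and 1852 were -0.60 and -0.57, both past the threshold, and 2181 did not pass (adjusted p = 0.108).

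The authors' processed values, tested over those 747 probes, gave 10 calls (1.34%), 8 falls and 2 rises, and 9 of them were among the 17. In the authors' deposited table ORB1012 stood at 302, 288, 285 and 269 in control and at 388, 414, 365 and 402 in L803mts, a difference of 0.46 log2 units (limma adjusted p = 0.00710). There, probe 1423 differed by 0.44 (adjusted p = 0.0767), 2233 by 0.28 (0.115), 2181 by 0.28 (0.115), ORB_1210600 by 0.20 (0.149) and ORB1136 by -1.35 (0.0553), none past the threshold.

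L803mts replicate 2 differed from its group in more than its slide. It had the lowest median foreground of the 8 arrays, 115 against 147 to 154 in the other L803mts arrays. It also had the fewest saturated spots and the most spots flagged as not found (4931, control spots not counted). On it, 33 probes lay over 1 log2 unit from the mean of the other L803mts arrays, 26 of them below, against 0 to 23 probes on the other 18 arrays of the series. It was the lowest L803mts array in 50 of the 64 falls and the highest in 10 of the 21 rises. The part of slide or array quality in these values was not tested.

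Leaving it out kept the direction of all 85 calls, an outcome that could not have differed. In each call, every single L803mts replicate already differed from the mean control value in the same direction as the group mean. Of the 64 falls 49 stayed past the threshold, and of the 21 rises 15 did, while 6 further probes entered. The median fall went from -0.65 to -0.56 and the median rise from 0.37 to 0.35. Falls beyond 1 log2 unit dropped from 18 to 6. By size without replicate 2, the leading falls called both ways were ORB_1112352, 3142, 2906, 2885 and 2869, and the leading rises ORB_1210051, ORB_0511275, ORB_0511210, ORB_0511276 and ORB_0510134. With replicate 2 and the other groups all left out, limma on the remaining 7 arrays called 38 probes, 34 falls and 4 rises, of which 35 were among the 85.

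**Figure D3:**
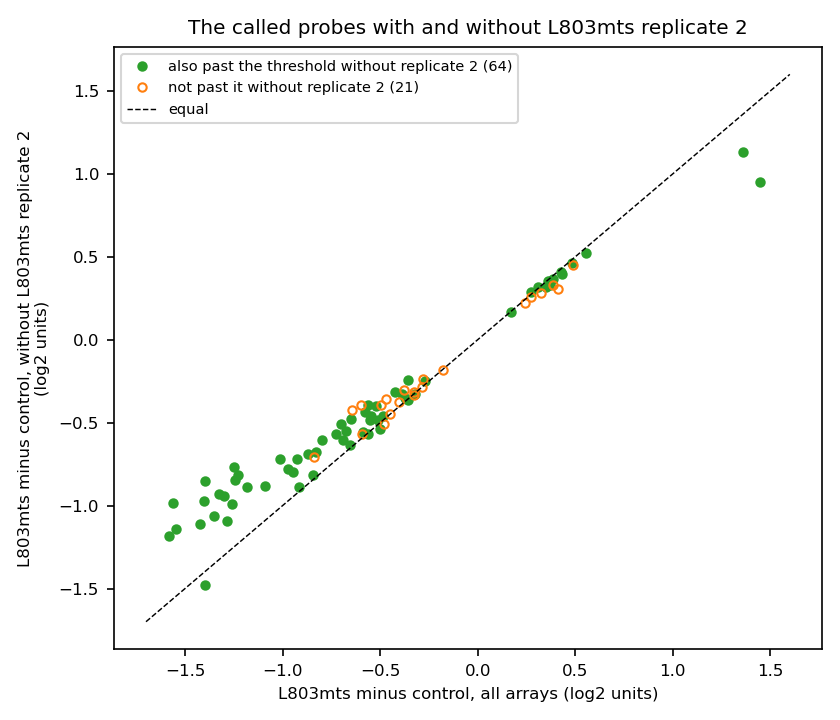
Difference between L803mts and control in log2 units with all arrays (horizontal axis) against that without L803mts replicate 2 (vertical axis) for the 85 called probes, with a dashed line of equality. The 64 filled points also passed without replicate 2 and the 21 open ones did not. The falls beyond -1 lie nearer to 0 on the vertical axis, with ORB_1112352 (-1.48) as the exception.

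Called probes were unevenly placed on the array. Block 3 held 32 of the 64 falls, 7.48% of its 428 probes, and block 1 held 14, whereas blocks 4 to 8 together held 10. Blocks 5 and 6 held 14 of the 21 rises, 6 and 8. Without replicate 2 block 3 still held 24 of 52 falls. The median difference over all probes of block 3 was -0.073 log2 units, and in the other blocks it lay between -0.020 and 0.043. Centring each print block within each array left 67 falls and 32 rises.

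**Figure D4:**
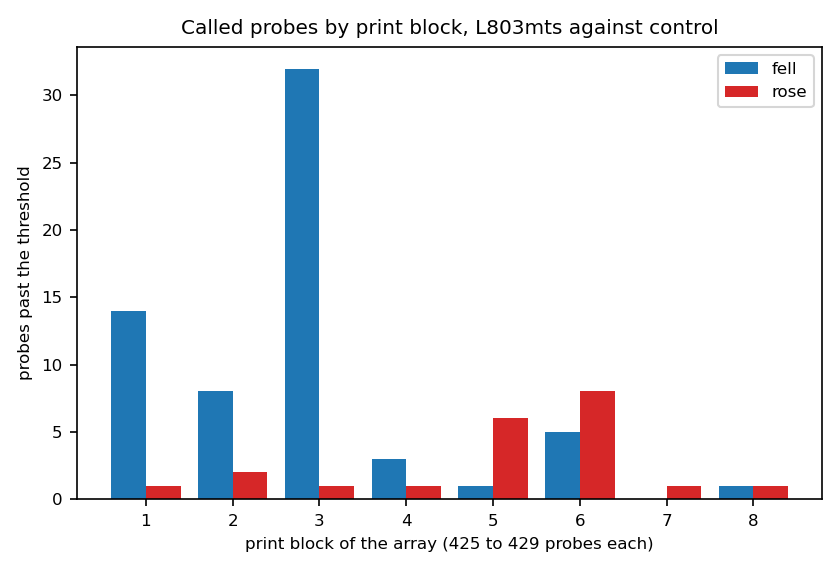
Number of probes past the threshold (vertical axis, from 0) in each of the 8 print blocks (horizontal axis), with falls in blue and rises in red. Block 3 has 32 falls, and blocks 5 and 6 have 6 and 8 rises.

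Falls also gathered in 1 run of codes, singled out after the values were seen. Of the 42 tested probes numbered 2800 to 2899, 11 fell (26.2%) and 0 rose, against 3 of the 95 numbered 2900 to 2999. All 11 were printed in blocks 1 and 3, where 31 of the 42 lie, and 0 of the 11 in blocks 6 and 8 fell. The 7 in block 3 all belong to the rows of neighbouring spots described below, behind saturated probes. Both patterns thus count those 7 probes. In block 1, 2890, 2882 and 2865 stood 2, 3 and 4 places before a saturated probe, and 2876 stood 8 places after one. Without L803mts replicate 2, 8 of the 42 fell, and in the fit of the 8 arrays 1 did.

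The 3 spots of many falling probes disagreed with each other within an array. The SD of a probe's 3 spots, taken as the median over the control arrays, was over 0.5 log2 units for 51 of 3421 probes (1.49%), and 46 of these were in the brightest class (4.04% of it). It was over 0.5 for 30 of the 64 falls (46.9%), 12 of the 18 falls beyond 1 log2 unit (66.7%) and 0 of the 21 rises. The spots of 3142, as foreground less local background on control replicate 1, read 5741, 1407 and 612 from the top of the block to the bottom. Those of ORB_1112352 on the same array read 1340, 1423 and 1405.

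The disagreement had a direction. In 44 of the 51 uneven probes (86.3%) the mean control signal descended from the first to the second to the third spot, and in 0 it ascended, against 708 descending (20.7%) and 564 ascending of all 3421. All 3 spots had the called sign in 63 of the 64 falls and 21 of the 21 rises, an agreement that a call from their mean favours, and shared a sign in 1554 of all 3421 probes (45.4%). The 30 uneven falls had a median of -0.85 log2 units and 1 of them passed in the fit of the 8 arrays. The 34 even falls had a median of -0.55, and 12 of them passed there.

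**Figure D5:**
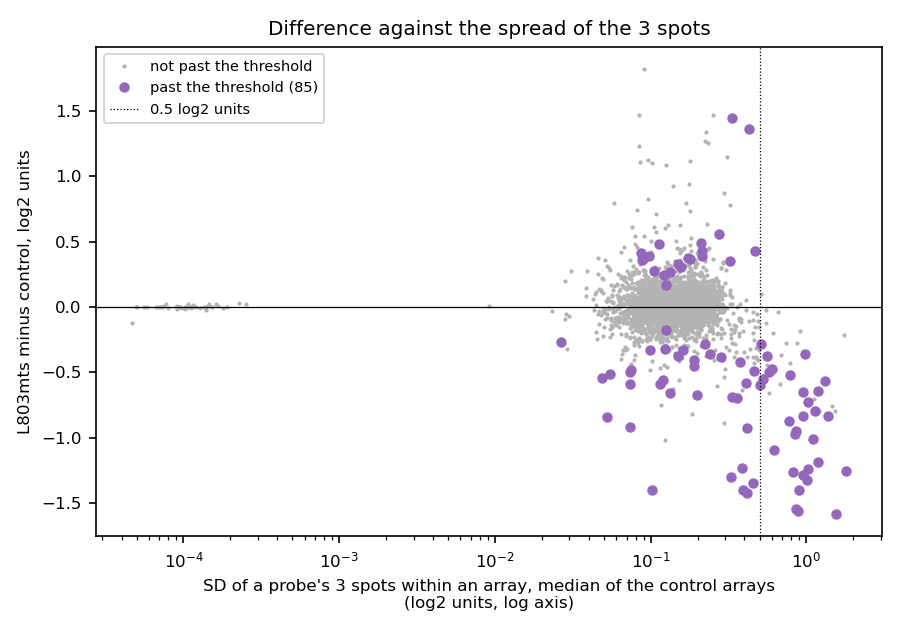
Difference between L803mts and control (vertical axis, log2 units) against the SD of a probe's 3 spots within an array (horizontal axis, log scale, median of the 4 control arrays) for all tested probes, with the 85 called ones in purple. Right of the dotted line at 0.5 log2 units lie 30 falls and 0 rises. The points at the far left have saturated spots, whose readings are equal.

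Several falls stood in a row behind a saturated neighbour, a pattern seen after the values were known. Probe 2757, in row 4 of block 3, was saturated on every control and L803mts array. The next 4 probes along that row were 2869, 2883, 2891 and 2899. The first spot of each read a mean foreground of 4604, 1153, 277 and 203.5 in control and 1584, 484, 161 and 126 in L803mts, a stepwise descent in both groups. All 4 fell, with differences of -1.29, -1.26, -0.68 and -0.39 log2 units. Further along the same row, saturated probe 2791 was followed by 2877, 2885, 2893 and 2901, which read 1845, 1099, 600 and 238 in control and 762, 455, 411 and 166 in L803mts. All of these fell too, with differences of -1.40, -1.42, -0.60 and -0.42.

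Over the array, 55 probes had a saturated spot on all 4 control arrays. Of the 192 other tested probes printed 1 to 4 places after one of them, 15 fell (7.81%) and 2 rose (1.04%). Elsewhere 49 of 3174 fell (1.54%) and 19 rose (0.599%). Among the 15, IDT0908_1102 itself had a saturated spot on 3 control arrays and 1 L803mts array. On the other side, 8 of the 198 probes printed 1 to 4 places before a saturated one fell (4.04%), and directly beside it the shares were 4 of 52 before (7.69%) and 5 of 52 after (9.62%). Falls were thus also more frequent before a saturated probe than away from one on both sides, where 41 of 2989 fell (1.37%), and the difference between the sides was not tested. The 15 falls after a saturated probe include those of both runs above, in which the pattern was first seen, so their share partly restates them. Of the 15, 12 were among the 32 such probes of block 3. Among the 12 largest falls 6 stood 1 to 4 places after a saturated probe, and among the 11 falls called in 3 fits 1 did. The median control intensity of the 192 was 7.23 against 6.93 elsewhere. Without L803mts replicate 2 the falls numbered 16 of the 192 and 36 of the 3174. The part of printing in the falls was not tested.

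The siRNA against GSK3b is the treatment nearest to L803mts in route and schedule, and the comparison asks where peptide and siRNA differ. No probe passed (0 of 3421, 0%) in limma over all 19 arrays or in the fit of these 8 arrays, and 297 had an unadjusted p under 0.05. The lowest adjusted p was 0.0736. The 12 largest falls differed between L803mts and siGSK3b by -1.12 to -0.50 log2 units, with SEs from 0.15 to 0.37, none past the threshold (adjusted p = 0.415 to 0.640). 3142, for example, had a mean of 9.34 ± 0.25 (SD, n = 4) in siGSK3b, between 9.98 ± 0.41 in control and 8.40 ± 0.83 in L803mts. Of the 12 largest rises 11 read higher in L803mts than in siGSK3b, by up to 0.39 log2 units. None differed past the threshold (limma adjusted p = 0.415 to 0.969). Falls and rises alike were picked by the size of their L803mts difference from control. That choice favours L803mts lying further from control than siGSK3b, so these signs say little about peptide against siRNA. The exception in sign, ORB_1210051, was at 14.93 ± 0.52 in L803mts and differed from siGSK3b by -0.08 (SE 0.26, adjusted p = 0.969). Its siGSK3b arrays read 14.56 to 15.25, above every control array. In each of the 12 largest falls and rises the siGSK3b mean lay on the L803mts side of the control mean. The siGSK3b arrays of ORB_1112352, at 8.91 to 9.04, lay below every control array, whereas those of 3142 overlapped control. Both groups are set against the same control arrays on slide 1, which favours a shared direction. The difference of siGSK3b from control was not tested here. The siGSK3b arrays filled slide 2, so the comparison of peptide and siRNA too cannot be told apart from slide.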

How the data were processed

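Small RNA of the right hippocampus was extracted with TRIzol, concentrated, labelled at the 3' end with Oyster-550 and hybridised to 1-colour arrays, per the labels' protocols. The deposited scanner files hold linear intensity values per spot and a score flagging spot quality, written by GenePix Pro 4.1.1.4 at a gain of 600, per the file headers. Each file covers a slide of 4 arrays, and only the 8 blocks the labels assign to a sample were used. The authors' deposited table holds processed intensity values for 747 probes. Its 4778 decimal cells were multiplied by 1000, after which each column correlated at 0.99996 or more with its own array, at a median ratio of 0.779 to 1.58. The sources used here do not give the authors' normalization, and whether values were centred is unknown.

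Foreground medians were corrected with normexp (offset 50, limma 3.58.1 in R 4.3.3, files read with version 1.17.8 of data.table). After log2, the 3 spots of a probe were averaged, leaving out the 40 control spots of 10336 and spots flagged bad, and quantile normalization followed. A probe was tested when its signal exceeded background by 2 SDs, from the spread of local backgrounds, on at least 3 of 19 arrays, which kept 3421 of 3432. Group means were fitted over all 19 arrays without covariates, moderated across probes and adjusted by the Benjamini-Hochberg method at 0.05, two-sided. Only quantile normalization and the limma fit were tried on simulated data, with independent normal log2 values for each probe. Background correction, spot averaging, the filter and slide effects were not simulated. The number of arrays limits precision. Named probes were the 12 largest falls and rises past the threshold with each L803mts array on that side of the mean control value, the 5 largest each way among the authors' probes and without L803mts replicate 2, and 2 on each side of the threshold. Lists of miRNAs and markers could not be applied to unnamed codes. The comparison, lists and rules were chosen with earlier results of these data known. Alternatives covered background, normalization, filters, flags, slide, position, blocks, moderation, weights and single arrays left out. Same-numbered control and L803mts arrays deviated with correlations of -0.19 to 0.32, and differently numbered ones with -0.48 to 0.34. So few values cannot settle whether the numbers pair samples, and the main fit did not pair them.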

Additional observations from a re-analysis of the deposited data

Results flagged for a closer look

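In groups of 4 arrays, 82 checks set the highest or lowest array apart where its gap to the nearest other exceeded Dixon's limit as a share of the group's range. This picked out 13 values, and 9 of the 13 were on L803mts replicate 2. The probes flagged were named ones, picked by differences that include replicate 2. The limit's chance rate of about 1 in 20 therefore does not apply to them. On normalized log2 scale, L803mts replicate 2 was low at 8.20 for ORB_1112497 (others 10.47 to 10.54), 8.11 for 2906 (9.72 to 9.78), 7.29 for 2885 (8.45 to 8.66), 7.72 for 2877 (9.31 to 9.64), 9.39 for 1527 (11.51 to 11.64), 7.04 for 1892 (8.49 to 8.78), 7.03 for 2890 (8.41 to 8.52), 9.62 for ORB_0409040 (10.32 to 10.46) and 9.64 for 1852 (10.23 to 10.32). L803mts replicate 1 was low for ORB_0511210, at 12.12 against 12.42 to 12.47. Control replicate 1 was low for 2885, at 9.54 against 9.67 to 9.70. Control replicate 4 had 4143 spots flagged as not found, against 3637 to 3693 on the other control arrays. Control replicate 1 had a median SD of a probe's 3 spots of 0.151 log2 units, against 0.136 to 0.138.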

How the results depend on the processing

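The count of 85 calls was 80 to 99 with no background subtraction, cyclic loess, either other filter, trend and robust moderation, array weights or centred print blocks, 74 with slide as a random block and 68 with not-found spots left out. It was 51 with plain background subtraction, 56 with median scaling (5 rises and 51 falls, against 21 and 64), 55 with array position as a block, 20 with control and L803mts arrays only and 51 to 98 leaving out 1 array at a time, lowest without control replicate 2. The authors' values gave 10 calls over all their probes, against 17 from the scanner values. Alternatives added after seeing the data gave 38 calls with control and L803mts replicates 1, 3 and 4 only, and 3 with not-found spots left out before quantile normalization, which leaves arrays with unequal numbers of dim spots. With slide serial order as a covariate 2 probes passed, 0 of them among the 85. The slope of that covariate comes from L803mts replicate 2 against the other L803mts arrays alone. Under it the differences of ORB_1112497 (0.553), 2877 (0.171), 1527 (0.606), 1892 (0.109), 2890 (0.00546) and 2893 (0.165) turned positive and that of ORB_0511275 (-0.380) negative. No other alternative turned the sign of a named probe, which leaving out a single L803mts array could not have done. Replicate number as a block gave 87 calls, 76 of them shared. The comparison with siGSK3b stayed at 0 calls in each alternative run, including the replicate block (lowest adjusted p 0.0555 to 0.486). Where not stated, the cause of a changed count was not tested. Of 32 named calls, 21 to 30 held without any 1 array. Dim probes limit the range: 1 fall and 2 rises came from the dimmest class of control intensity.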
